A study of Mus musculus with 12 samples.

Results

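Six2, Cited1, Gdnf, Eya1, Osr1, Meox1, Crym, Itga8, Pax2 and Sall1 are markers and regulators of the cap mesenchyme, the nephron progenitors of the developing kidney. They were taken by gene symbol as 10 of the 36186 genes listed in the RNA-seq counts of this series. Each symbol matched 1 Entrez identifier, and all 10 passed the filter on low counts in every comparison. The lowest count of any of them in any library was 191 reads, for a lowest mean of 348 reads over the 12 libraries.

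Whole kidneys of mouse embryos at E18.5, of mixed background, gave the RNA, with 3 libraries in each of 4 groups: wild type, Hoxa-/- Hoxc+/-, Hoxa+/- Hoxc-/- and Hoxa-/- Hoxc-/-. Hoxa and Hoxc stand for frameshift alleles of the paralogs 9, 10 and 11 of each cluster, carried in the germ line, so the loss is not limited to the kidney or to the cap. The animals came from crosses of double heterozygotes. The labels give the Hoxa-/- Hoxc-/- animals, called double homozygous mutants here, as mutant for all 6 genes. The study, however, found no kidney at E18.5 in mutants of all 6, so the name follows the labels only. In the study's main text the sequenced mutants kept Hoxa11 function, some from 1 wild type allele and others from both. The Hoxa11 genotype of each library is not in its label, so this group may mix Hoxa11 genotypes. Libraries are named by the embryo number in their labels. The numbers mark separate embryos, but the litter of each is not given.

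In the fetal kidney the cap mesenchyme surrounds each tip of the ureteric bud. Its cells either renew themselves or, on a signal from the bud, turn into epithelium and form a nephron. Six2 keeps the cells in the undifferentiated state and Cited1 marks the least committed of them. Eya1, Pax2, Sall1 and Osr1 act upstream of or beside Six2. Gdnf, secreted by these cells, binds Ret and Gfra1 on the bud and drives its branching, so that the progenitors and the bud maintain each other.

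The members were abundant enough in wild type kidneys to be measured with little counting error. Per kilobase of exon, Six2 stood highest at 40.3 ± 8.95 CPM per kilobase (SD, n = 3), close to Sall1 at 37.6 ± 3.35. Itga8 (28.7 ± 2.83), Pax2 (25.2 ± 4.24) and Cited1 (25.1 ± 4.08) followed within each other's spread. Crym (9.68 ± 2.10), Gdnf (9.51 ± 1.37), Meox1 (7.99 ± 1.09) and Eya1 (6.23 ± 1.25) were lower, and Osr1 was the lowest at 3.82 ± 0.853. Six2, which encodes a homeodomain factor, lies on chromosome 17 (85662736 to 85688254, minus strand, GRCm38). Cited1, a transcriptional coactivator gene, lies on chromosome X (102247378 to 102252181, minus strand), and Gdnf, the ligand gene, on chromosome 15 (7810048 to 7837580, plus strand).

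The sequences directly before the start sites of these 3 genes are shown because their RNA had the largest log2 fold changes in the double homozygous mutants among the members with a promoter entry. Each is the 150 bases upstream of the first start site of the gene, from RefSeq (GRCm38.p6), 5′ to 3′ on the strand of the gene. Capitals mark matches on either strand to 3 motifs. These were TATAAA, the core of a TATA box, then TTTATNG, a motif of posterior Hox proteins, and CCAAT.
Six2, chr17:85688255-85688404, minus strand: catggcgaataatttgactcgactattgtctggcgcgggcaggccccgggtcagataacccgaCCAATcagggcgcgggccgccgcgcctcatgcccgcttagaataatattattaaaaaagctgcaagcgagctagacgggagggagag
Cited1, chrX:102252182-102252331, minus strand: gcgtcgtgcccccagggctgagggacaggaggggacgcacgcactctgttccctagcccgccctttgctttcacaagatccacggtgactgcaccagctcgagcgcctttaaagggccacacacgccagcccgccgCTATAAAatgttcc
Gdnf, chr15:7809898-7810047, plus strand: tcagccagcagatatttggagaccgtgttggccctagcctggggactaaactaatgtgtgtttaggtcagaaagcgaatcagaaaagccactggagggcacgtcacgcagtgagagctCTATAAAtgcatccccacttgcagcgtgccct

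In Gdnf the TATAAA match began 31 bases before the start site, and in Cited1 it began 13 bases before. In both genes the Hox motif matched the opposite strand over the same bases, so that 1 stretch of letters gave both matches. Six2 held neither of these, and had a single CCAAT that began 87 bases before its start. Of 32851 promoter windows of the same length, 7.57% held TATAAA, 5.81% TTTATNG and 24.5% CCAAT. A match of letters in such a window is a description and not evidence of binding. Of the 10 members, 6 had a promoter entry, with 13 start sites between them.

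The libraries held 28616877 to 47067903 reads on genes (median 39328488), so that 3 counts, the floor used here, came to between 0.0637 and 0.105 CPM, counting error only. Levels are CPM, read counts per gene after TMM scaling of all 12 libraries to 1 size. The 3 Hoxa+/- Hoxc-/- libraries were sequenced in another run than the other 9, so genotype and run cannot be told apart for that group. Xist was present at 60 to 336 CPM in 5 libraries (Hoxa-/- Hoxc+/- 31 and 33, Hoxa+/- Hoxc-/- 110, and double homozygous 27 and 29) and at most 0.139 CPM in the others, so the groups were uneven in sex. The mutant Hox transcripts were still counted, as frameshift alleles can leave them: Hoxa10 lay between 101 and 111 CPM in the double homozygous mutants and between 125 and 164 CPM in wild type, so these counts do not check the genotypes.

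Hoxa-/- Hoxc+/- library 20 stood apart from the rest. Its root mean square difference from its own group was 0.73 on the log2 scale over 16229 genes. The same measure was 0.46 and 0.48 in the other members of its group, which it enters, and 0.25 to 0.34 in the other 9 libraries. It had the fewest reads, and its closest match among all libraries was wild type 55. Markers of the proximal tubule summed to 375 CPM in library 20 and to 923 to 2680 CPM in the other 11, and podocyte markers to 556 CPM against 1040 to 1720. Its liver markers summed to 46.9 CPM, the highest of the 12 libraries, with 26.0 and 3.92 CPM in the rest of its group and 3.01 to 3.96 CPM in wild type. Of the targeted genes, Hoxc9 was 32.4 CPM in it, against 11.7 and 12.6 CPM in the rest of its group and 11.3 to 15.6 CPM in wild type, and Hoxc10 was 120 CPM, against 45.5 and 41.5 CPM and 50.1 to 66.9 CPM. Hoxa9, of which its label gives 2 mutant alleles, was also highest in it (40.4 CPM, against 26.8 and 27 CPM and 24.3 to 26.4 CPM), as was Hoxd11, which was not targeted (49.7 CPM, with 49.2 CPM in a Hoxa+/- Hoxc-/- library). Results on the members that rest on it are given with and without it, and tests of the other gene lists with it only.

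In the double homozygous mutants 5 of the 10 progenitor regulators fell against wild type, with wide differences between the 3 kidneys. These were Gdnf, Cited1, Crym, Meox1 and Sall1 (adjusted p below 0.05 by edgeR's quasi-likelihood test over 15839 genes), where 7.4% of all genes tested were called lower and 13.7% were called in either direction. In 8 of the 10 every double homozygous library lay below every wild type library, where 20.6% of all genes did. The log2 fold change was below 0 in 9 of the 10 members, where it was in 51% of all genes. Its median was -0.91 over the members and -0.01 over all genes tested. In a bulk sample, fewer cells of a type and less RNA per cell cannot be told apart.

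**Figure D1:**
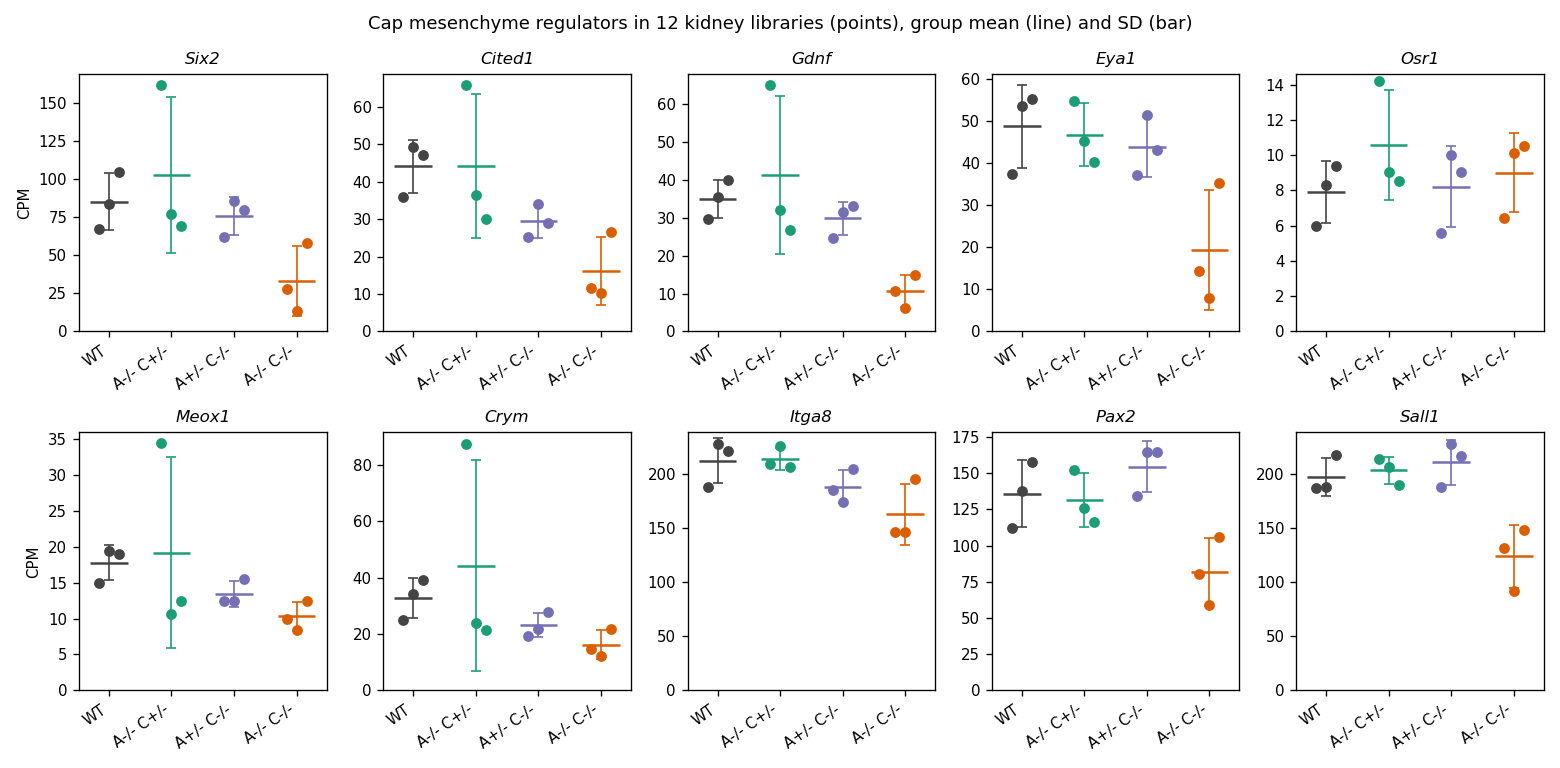
CPM of each member in the 12 libraries, by genotype (WT, wild type; A and C, the Hoxa and Hoxc alleles), with 1 point per kidney, the group mean as a line and the SD as a bar. In the double homozygous mutants Six2 ran from 13.2 to 58.3 CPM and Gdnf from 6.31 to 14.8 CPM, all below wild type, while Osr1 overlapped between all groups.

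Six2, the factor that holds nephron progenitors undifferentiated, had 67.1, 84.1 and 105 CPM in wild type 30, 37 and 55. It had 28.0, 13.2 and 58.3 CPM in double homozygous 24, 27 and 29, all below the lowest wild type kidney. The mean was 38.9% of wild type (33.2 ± 23.0 against 85.4 ± 19.0 CPM, SD, n = 3 each). With a log2 fold change of -1.37 (SE 0.46, 95% interval -2.43 to -0.30) its adjusted p was 0.0868 by edgeR (0.0745 to 0.384 over the processing alternatives). It was past the threshold where library 29 was left out (log2 fold change -2.06, adjusted p = 0.0177 by edgeR) and by the Audic-Claverie test on summed counts, which has no term for the spread between kidneys. The 4.42-fold range of Six2 within this group was wider than the difference between the group means.

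Cited1, a marker of the least committed cap cells, had 35.9, 49.3 and 47.0 CPM in wild type and 11.6, 10.3 and 26.5 CPM in the double homozygous libraries in the same order of embryos. The groups did not overlap, and library 29 again lay nearest to wild type. Cited1 fell by 1.45 on the log2 scale (SE 0.34, adjusted p = 0.0327 by edgeR; 0.0130 to 0.169 over the alternatives).

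Meox1, a homeobox gene enriched in the cap, had 19.4 and 19.0 CPM in wild type 37 and 55, 15 CPM in wild type 30, and 8.45 to 12.4 CPM in the double homozygous mutants. It fell by 0.80 (SE 0.17, adjusted p = 0.0246 by edgeR; 0.000416 to 0.24 over the alternatives), less than Cited1 but with a narrower spread than Cited1 in both groups. Its SD on the log2 scale was 0.21 in wild type and 0.28 in the mutants, where the median gene had 0.14 and 0.15. Osr1, a zinc finger factor that acts early in the intermediate mesoderm and later in the cap, did not follow this pattern. It had 5.96, 8.32 and 9.40 CPM in wild type and 6.45, 10.1 and 10.5 CPM in the double homozygous mutants. These overlapped, with a log2 fold change of 0.19 (95% interval -0.36 to 0.74, adjusted p = 0.608 by edgeR), and the sign turned with Xist as a covariate (-0.30). The interval leaves room for a fall of up to 0.36 or a rise of up to 0.74, so the data do not show an equal level.

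Eya1, Pax2 and Sall1, which act with Six2, had means of 39.5%, 60.1% and 62.6% of wild type in the double homozygous mutants. Eya1, the phosphatase and coactivator that partners Six2, had 37.4, 53.6 and 55.1 CPM in wild type and 14.4, 8.04 and 35.3 CPM in the double homozygous mutants. No mutant kidney reached the lowest wild type value, though library 29 came close to it. The log2 fold change was -1.34 (SE 0.47, adjusted p = 0.0945 by edgeR), and, as for Six2, it passed where library 29 was left out (-2.12, adjusted p = 0.0108) and by the Audic-Claverie test.

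Pax2, a paired box factor of both the cap and the ureteric bud, had 112, 138 and 158 CPM in wild type and 80.5, 58.7 and 106 CPM in the double homozygous mutants. The highest mutant value lay just under the lowest wild type value, at a log2 fold change of -0.74 (SE 0.21, adjusted p = 0.0575 by edgeR; 0.0050 to 0.362 over the alternatives). Sall1, a zinc finger factor of the progenitors, had 187, 188 and 218 CPM in wild type and 132, 91.9 and 148 CPM in the mutants. It fell by 0.68 (SE 0.17, adjusted p = 0.0368 by edgeR; 0.00146 to 0.357 over the alternatives), with no overlap between the groups.

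Gdnf is the ligand by which the cap drives branching of the ureteric bud. In the edgeR fit of all 6 libraries without a covariate it had the largest fall of the 10. It had 29.7, 35.3 and 39.8 CPM in wild type and 10.7, 6.31 and 14.8 CPM in the double homozygous mutants. Unlike for Six2, the highest mutant kidney, library 29, stayed far below the lowest wild type kidney. Gdnf fell by 1.73 on the log2 scale (SE 0.28, 95% interval -2.37 to -1.08, adjusted p = 0.01 by edgeR), that is 3.31-fold. Over the alternatives its adjusted p ranged from 4.15e-09 to 0.171, the highest with Xist as a covariate. With any 1 of the 6 libraries left out, it stayed past the threshold (6 of 6 fits, log2 fold change -2.05 to -1.46). Its rank as the largest fall did not hold in every fit. Without double homozygous 29, Eya1 was at -2.12, Six2 at -2.06 and Gdnf at -2.05. With Xist as a covariate, Cited1 was at -1.93, Eya1 at -1.74 and Gdnf at -1.69.

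Itga8, the integrin chain on mesenchymal cells that binds nephronectin of the bud and is needed for Gdnf expression, changed least among the members that were lower. It had 188, 227 and 221 CPM in wild type and 146, 146 and 195 CPM in the double homozygous mutants, where library 29 overlapped wild type. The log2 fold change was -0.39 (SE 0.13, adjusted p = 0.0914 by edgeR). Crym, a thyroid hormone binding protein and cap marker, had 25.1, 34.2 and 39.1 CPM in wild type and 14.8, 12.1 and 21.8 CPM in the mutants, without overlap. It fell by 1.02 (SE 0.24, adjusted p = 0.0327 by edgeR; 0.000361 to 0.248 over the alternatives).

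Which members passed depended on single kidneys. Without double homozygous 29, which was the highest of its group in all 10 members, 9 members were called lower, every one but Osr1. In that fit 1644 of 16081 genes were called in either direction. With wild type 30 left out, 6 were called (Pax2 besides the 5), where 3386 of 16080 genes were. Leaving out wild type 37 (535 of 15989 genes called), wild type 55 (633 of 16031) or double homozygous 24 (793 of 16018) left 1 (Gdnf). Leaving out double homozygous 27 (1101 of 16000) left 2 (Gdnf and Sall1). Over all genes tested, 2171 were called, with 535 to 3386 when 1 library was left out. With Xist as a covariate no member was called, and 75 genes were. Double homozygous 24 is the only one of its group without Xist, so that this fit in effect compares that kidney with wild type. In 9 of the 10 members the unadjusted p was below 0.05, as it was in 32.4% of all genes tested.

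**Figure D2:**
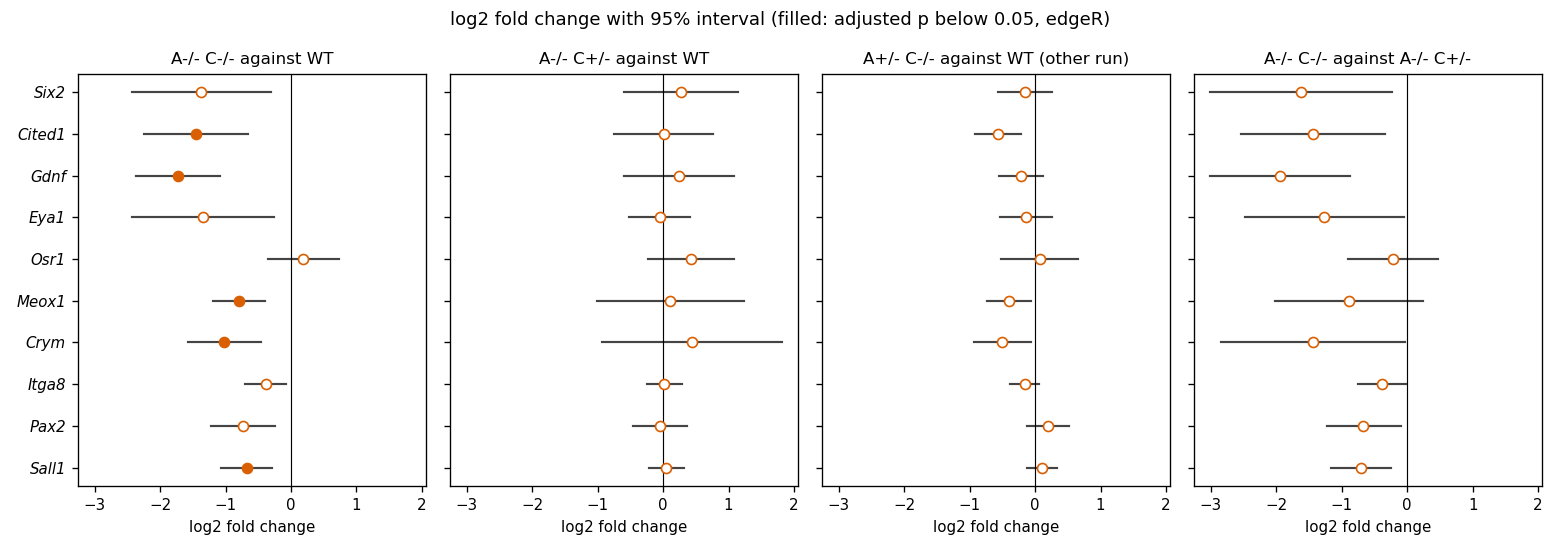
log2 fold change (points) with its 95% interval (lines) for each member in the 4 comparisons, by edgeR, with filled points where the adjusted p was below 0.05. In the first panel 9 of 10 points lie below 0 and 5 are filled, and in the other panels none is filled.

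In Hoxa-/- Hoxc+/- kidneys, which keep 1 set of Hoxc alleles, no member was called against wild type. By edgeR 0 of 15789 genes passed (0%), 360 had an unadjusted p below 0.05 (none of them a member), and DESeq2 called 18 genes and no member. All 10 members overlapped between the groups, where 4.83% of all genes lay wholly below wild type and 3.5% wholly above. The log2 fold change was below 0 in 2 of the 10 members and in 42.6% of all genes, with medians of 0.08 and 0.03. These values rest on library 20. Its Six2 was 162 CPM, with 77.0 CPM in library 31 and 69.6 CPM in library 33, and its Gdnf was 65.0 CPM, with 32.0 and 26.7 CPM. Crym in library 20 was 87.5 CPM against 23.8 and 21.5 CPM, and Meox1 was 34.5 CPM against 10.6 and 12.4 CPM. In 6 of the 10 members library 20 exceeded the highest wild type kidney, and in 9 it was the highest of its own group.

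Without library 20, Six2 had a log2 fold change of -0.22, Cited1 of -0.41, Gdnf of -0.26, Crym of -0.54 and Meox1 of -0.64 against wild type. Of the 10 members 8 were then negative, with a median of -0.21, and none was called (adjusted p 0.431 to 0.996 by edgeR, 8 genes called in all). Meox1 then had 10.6 and 12.4 CPM, both below the lowest wild type value of 15 CPM, and Crym had 21.5 and 23.8 CPM against a lowest wild type value of 25.1 CPM. Six2 at 69.6 and 77.0 CPM stayed inside the wild type range. The low proximal tubule and podocyte markers of library 20, and its high liver markers, Hoxc9 and Hoxc10, moved with its high members, as did Hoxa9, and their part in these values was not tested.

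In Hoxa+/- Hoxc-/- kidneys, which keep 1 set of Hoxa alleles and came from the other run, no member was called against wild type. Cited1 had 25.3, 34.0 and 28.9 CPM in the 3 libraries, all below the lowest wild type kidney at 35.9 CPM, and was the only member without overlap. This is 1 of 10, where 15.2% of all genes lay wholly below wild type, so the count is no more than the background. Its log2 fold change was -0.57 (SE 0.15, adjusted p = 0.0979 by edgeR). It was called by DESeq2 (-0.58, adjusted p = 0.0103) and where wild type 30 was left out, and over the alternatives its adjusted p reached 0.623. Meox1 (-0.40, adjusted p = 0.176) and Crym (-0.50, adjusted p = 0.192) had an unadjusted p below 0.05 too, 3 of the 10 members where 21.1% of all genes tested had one. Over all genes, 376 of 15902 were called by edgeR (2.36%, with 1.53% lower and 0.836% higher). The log2 fold change was below 0 in 7 of the 10 members and in 47.5% of all genes. Six2 (62.3, 86.1 and 79.9 CPM), Gdnf (24.7, 31.5 and 33.1 CPM) and Eya1 (37.1, 51.3 and 43.1 CPM) overlapped wild type, at log2 fold changes of -0.15, -0.22 and -0.14. Pax2 had its highest group mean here, from 134, 165 and 165 CPM, with a log2 fold change of 0.20 (adjusted p = 0.455).

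Against Hoxa-/- Hoxc+/-, where the groups differ by the labels in the second set of Hoxc alleles, all 10 members had a log2 fold change below 0 in the double homozygous mutants, as did 51.7% of all genes. By the study's text the 2 groups may differ in Hoxa11 alleles too. None was called: by edgeR 0 of 15764 genes passed (0%), 1787 had an unadjusted p below 0.05 (11.3%; 8 members among them), and DESeq2 called 487 genes, Gdnf among them. In 7 members every double homozygous library lay below every Hoxa-/- Hoxc+/- library, where 12.7% of all genes did. Gdnf was at 6.31 to 14.8 CPM against 26.7 to 65.0 CPM (log2 fold change -1.95, 95% interval -3.02 to -0.88, adjusted p = 0.231) and Six2 at 13.2 to 58.3 CPM against 69.6 to 162 CPM (-1.62, 95% interval -3.02 to -0.23, adjusted p = 0.399). The median over the members was -1.08, and -0.01 over all genes. Without library 20 the median was -0.60 and 687 genes were called, none of them a member. Of the members 9 were then below 0, with Osr1 at 0.06. Gdnf was at -1.45 (adjusted p = 0.0529 by edgeR), Six2 at -1.12 (0.244), Crym at -0.46 instead of -1.44 and Meox1 at -0.14 instead of -0.89. The double homozygous libraries are those of the comparison with wild type, so the values of the members are not independent between the 2.

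The spread between kidneys of 1 labelled group was itself uneven, and the double homozygous group may mix Hoxa11 genotypes. The median SD of the members on the log2 scale was 0.43 in the double homozygous mutants, where the median of 16229 genes was 0.15. In wild type it was 0.25, where the median gene had 0.14, and in Hoxa+/- Hoxc-/- it was 0.22 and 0.14. In Hoxa-/- Hoxc+/- it was 0.49, where the median gene had 0.32. Without library 20 it was 0.10 over the other 2 libraries, where the median of 14222 genes was 0.07. These last values are on the log2(CPM + 1) scale and over fewer genes, so they are not directly comparable with the others. Among the double homozygous mutants Six2 and Eya1 each had an SD above that of 97.6% of all genes in the same 3 libraries. The differences also ran together across members. Wild type 30 was the lowest of its group in 10 of 10 members, Hoxa+/- Hoxc-/- 38 in 9, Hoxa-/- Hoxc+/- 33 in 9 and double homozygous 27 in 9.

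**Figure D3:**
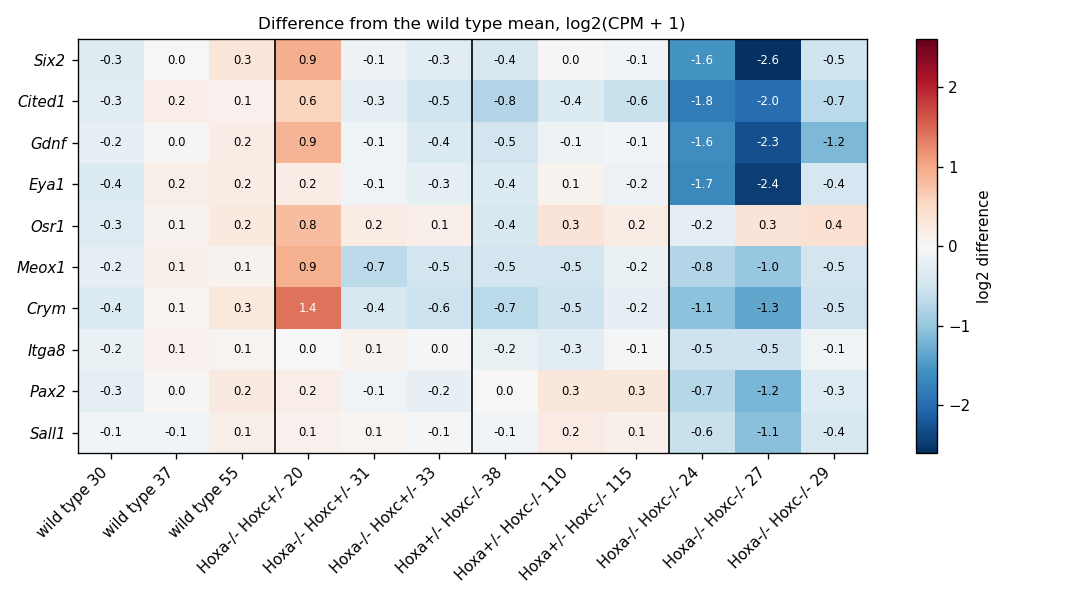
Difference of each library (columns, by genotype and embryo number) from the wild type mean for each member (rows), in log2(CPM + 1), with blue for lower and red for higher. Double homozygous 27 is the darkest column in Six2, Gdnf and Eya1, double homozygous 29 is pale, and Hoxa-/- Hoxc+/- 20 is the only column with any member at least 0.5 above the wild type mean (6 of the 10).

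Among the 9 mutant kidneys the members followed Six2 to differing degrees. The correlations are over the 9 mutant libraries on the log2(CPM + 1) scale, with exact permutation p (two-sided, unadjusted, 9 relations computed). Gdnf had r = 0.97 (exact p = 1.1e-05; rho = 0.95, exact p = 0.000353) and Eya1 had r = 0.97 (exact p = 5.51e-06; rho = 0.98, exact p = 4.96e-05). Cited1 had r = 0.97 too (exact p = 6.61e-05; rho = 0.90, exact p = 0.00203). For comparison, the median r with Six2 over 14222 genes was 0.00, and 1.61% of genes reached 0.90. At most 0.127% of genes had an r as high as any of these 3 members.

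Without the 2 libraries farthest from the median of Six2, double homozygous 24 and 27, r was 0.94 for Gdnf, 0.96 for Cited1 and 0.88 for Eya1. Within the 6 mutant libraries of 1 run it was 0.97 for each of the 3. The 3 libraries of the other run are too few for a value. As deviations from the means of their labelled groups (the genotype means below), which take out the difference between groups, the r was 0.95 for Gdnf, 0.94 for Cited1 and 0.93 for Eya1. Without library 20 these were 0.97, 0.91 and 0.99, while the run then has 5 mutant libraries, under the 6 taken here as the least for a correlation. These members thus differed together between kidneys of the same labelled group as well as between groups. Since the double homozygous group may mix Hoxa11 genotypes, its deviations may include differences of genotype. Leaving out library 20 gave 0.96 for Gdnf, 0.96 for Cited1 and 1.00 for Eya1.

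Sall1 (r = 0.93, exact p = 0.00035; rho = 0.95, exact p = 0.000353) and Pax2 (r = 0.92, exact p = 0.00111; rho = 0.90, exact p = 0.00203) also followed Six2. Their r was 0.59 and 0.56 without double homozygous 24 and 27, so that much of these relations across the 9 libraries rests on those kidneys. Within 1 run the r was 0.95 for Sall1 and 0.99 for Pax2, and for deviations from the genotype means it was 0.88 and 0.97, both measures with those kidneys included. Without library 20 the r over the mutant libraries was 0.97 for Sall1 and 0.95 for Pax2, and the r of the deviations was 0.95 and 0.98. Itga8 had r = 0.82 (exact p = 0.0083; rho = 0.63, exact p = 0.076) and only 0.24 without them, so its relation rests on them. Crym (r = 0.83, exact p = 0.0113; rho = 0.90, exact p = 0.00203) and Meox1 (r = 0.78, exact p = 0.0289; rho = 0.83, exact p = 0.00827) had 0.94 and 0.90 without them, and 0.94 and 0.82 without library 20. Osr1 had r = 0.36 (exact p = 0.337; rho = 0.28, exact p = 0.463), and 32.3% of all genes had an r at least as high. Its r was 0.76 without double homozygous 27 alone, and 0.03 without library 20. For deviations from the genotype means the r was 0.59 for Itga8, 0.78 for Crym, 0.72 for Meox1 and 0.46 for Osr1. Without library 20 these were 0.75, 0.88, 0.77 and 0.23. The exact p came from permutations over all 9 libraries, whatever their genotype. In all, 8 of the 9 relations had an exact p below 0.05 by r and 7 by rho, and 6 to 8 by r with 1 library left out, the 6 without double homozygous 24.

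**Figure D4:**
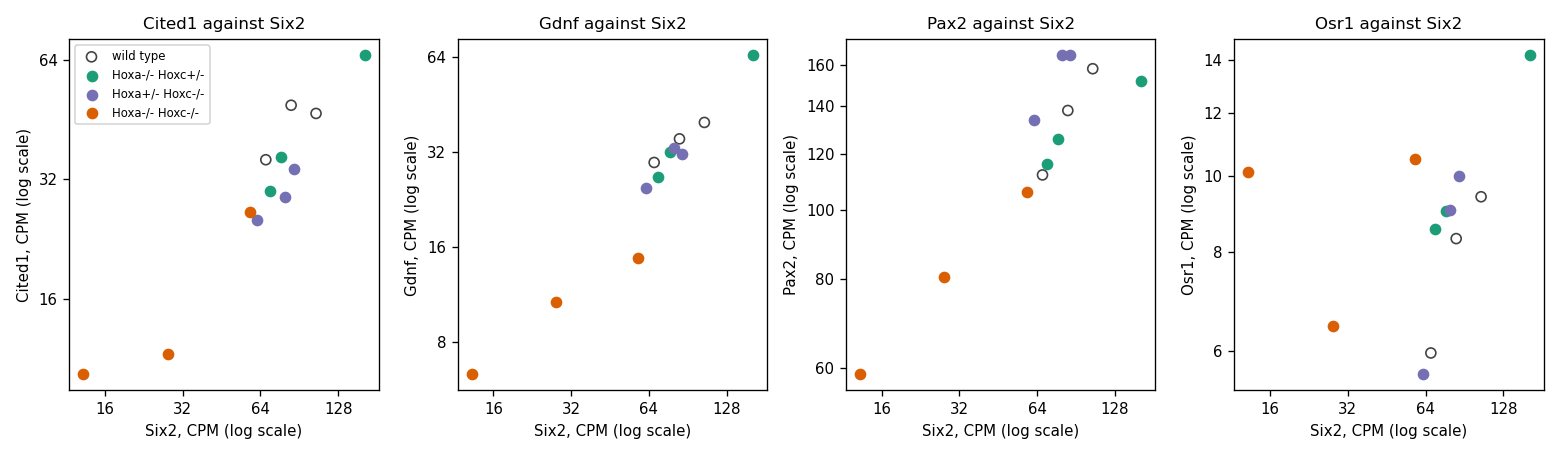
Cited1, Gdnf, Pax2 and Osr1 against Six2, each in CPM on log scales, with 1 point per library (open, wild type; filled, the mutant genotypes). Cited1 and Gdnf rise with Six2 from double homozygous 27 to Hoxa-/- Hoxc+/- 20, while Osr1 lies near 10 CPM in double homozygous 27 and 29 at Six2 levels of 13.2 and 58.3 CPM.

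The members did not scale with Six2 by 1 factor. On the log2(CPM + 1) scale Gdnf changed by 0.91 per unit of Six2, Eya1 by 0.85, Cited1 by 0.75 and Crym by 0.64. Pax2 (0.45), Meox1 (0.42), Sall1 (0.39), Itga8 (0.18) and Osr1 (0.12) changed less. Library 20 set part of this order. Without it the slope was 0.38 for Crym, 0.22 for Meox1 and 0.01 for Osr1, while Eya1 (0.98), Gdnf (0.87), Cited1 (0.69), Pax2 (0.53), Sall1 (0.47) and Itga8 (0.21) moved by less than 1.5 times, so that Crym then lay below Pax2 and Sall1. The slope of Osr1 was also 0.08 without double homozygous 24 and 0.41 without double homozygous 27. The slopes with 1 library left out were added after the data were seen. In ratios of CPM, Eya1 to Six2 was 0.573 on average in wild type and 0.576 in the double homozygous mutants, with overlapping ranges (0.525 to 0.637 and 0.514 to 0.609). Gdnf to Six2 was 0.379 to 0.443 in wild type and 0.254 to 0.478 in the double homozygous mutants, the lowest of them in library 29, where Six2 was near wild type and Gdnf was not. Itga8 to Six2 was 2.10 to 2.80 in wild type and 3.34 to 11.0 in the double homozygous mutants, and Osr1 to Six2 was 0.0888 to 0.0990 and 0.181 to 0.762, both without overlap.

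The 8 genes other than members whose levels were most like Six2 over the 9 mutant libraries were Amph (r = 0.986), Mycn (0.983), Cdt1 (0.980), Hnrnpdl (0.975), Mdm1 (0.974), Nell1 (0.974), E2f3 (0.973) and Zfp367 (0.972). They were the highest of 14222 genes with a mean of at least 1 CPM, and are given as a description. Without library 20 their r was 0.962 to 0.982. Mycn had 54.1, 65.9 and 67.4 CPM in wild type and 30.1, 22.1 and 43.1 CPM in the double homozygous mutants, again with library 27 lowest and library 29 highest.

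The other genes of the cap mesenchyme gave few calls. Of 13 (Six4, Wt1, Uncx, Tmem100, Spock2, Gas1, Fgf9, Fgf20, Bmp7, Robo2, Ncam1, Cdh11 and Rspo1), 1 was called lower in the double homozygous mutants and 1 higher, with a median log2 fold change of -0.20. Over all genes 7.4% were called lower and 6.31% higher, so these counts of calls are near the background. The log2 fold change was below 0 in 11 of the 13, where it was in 51% of all genes. In 4 of the 13 every double homozygous library lay below every wild type library, where 20.6% of all genes did. Tmem100 fell by 1.10 (10.5 ± 1.74 against 22.5 ± 5.38 CPM, SD, n = 3 each; adjusted p = 0.0144 by edgeR), while Cdh11, a cadherin that stromal cells express too, rose by 0.35 (458 ± 33.2 against 358 ± 16.1 CPM; adjusted p = 0.0336). Fgf20, a growth factor of the cap, had a log2 fold change of -1.85 (0.376 ± 0.306 against 1.35 ± 0.239 CPM; adjusted p = 0.0818), below that of Gdnf but at a low level, and Uncx, a homeobox gene, had -0.78 (41.8 ± 12.6 against 71.7 ± 13.4 CPM; adjusted p = 0.0637). Neither overlapped wild type and neither was called. The difference between this list and the members was not tested. The list is the same whole kidney measure and holds genes that other kidney cells also express.

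On the receiving side of Gdnf, 4 of 9 genes of its receptor, its bud tip targets and the Itga8 partners were called lower (7.4% of all genes), 0 higher, with a median of -0.60. Ret, the receptor tyrosine kinase of the bud tip, fell by 1.77 (11.4 ± 5.21 against 38.9 ± 2.30 CPM, SD, n = 3 each; adjusted p = 0.00958 by edgeR). Wnt11, a tip Wnt that feeds back on Gdnf, fell by 1.07 (23.1 ± 4.74 against 48.5 ± 8.65 CPM; adjusted p = 0.0113). Etv4, a transcription factor downstream of Ret, fell by 1.02 (21.8 ± 7.06 against 44.1 ± 5.63 CPM; adjusted p = 0.0293). Etv5, a related factor, fell by 0.60 (65.0 ± 14.2 against 98.2 ± 9.31 CPM; adjusted p = 0.0465), and Gfra1, Spry1, Dusp6, Npnt and Itgb1 were not called. Npnt, the ligand of Itga8, stood at a log2 change of 0.31 (adjusted p = 0.402) and Itgb1, its partner chain, of 0.09 (adjusted p = 0.423).

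Ret was also lower in Hoxa+/- Hoxc-/- kidneys, the 1 of these 9 genes called there, where 1.53% of all genes were called lower (26.9 ± 2.71 CPM, SD, n = 3; log2 fold change -0.52, adjusted p = 0.0435 by edgeR), where Gdnf had a log2 fold change of -0.22 and was not called. The 8 markers of the ureteric bud and collecting duct were lower there too, at a sum of 739 to 906 CPM against 939 to 1040 CPM in wild type. All 8 had a log2 fold change below 0, where 47.5% of all genes did, and 0 were called. Only 1 of the 8 lay wholly below wild type, where 15.2% of all genes did, so that count is no more than the background. Whether genotype or run lies behind these values cannot be told apart. In Hoxa-/- Hoxc+/- against wild type, and in double homozygous mutants against Hoxa-/- Hoxc+/-, edgeR called none of the 9 genes. With library 20 included it called no gene at all. Without library 20 it called 8 genes in the first comparison and 687 in the second, and the 9 genes are not given for those fits. In the second, with library 20, 7 of the 9 had an unadjusted p below 0.05 by edgeR (11.3% of all genes). The same number lay wholly below Hoxa-/- Hoxc+/- (12.7% of all genes).

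Of 11 tested paralogs of the members (Sall4 and Six3 were under the count filter), 2 fell and 1 rose, where 7.4% and 6.31% of all genes did. Meox2 fell by 0.90 (adjusted p = 0.0253 by edgeR), Osr2 fell by 0.69 (adjusted p = 0.0333) and Cited4 rose by 0.86 (adjusted p = 0.00699) in the double homozygous mutants. Cited2 was at 157 ± 7.87 against 147 ± 5.07 CPM (SD, n = 3 each) and was not called. Of the 10 genes of the induced nephron, the epithelial step that follows the cap, 2 fell, where 7.4% of all genes did, with a median of -0.42. These were Dkk1, a Wnt inhibitor (log2 fold change -1.48, adjusted p = 0.00847), and Lhx1, a homeobox gene of the renal vesicle (-0.55, adjusted p = 0.033). Wnt4, which drives the change to epithelium, stood at a log2 change of -0.49 (adjusted p = 0.0756). In Hoxa+/- Hoxc-/- Dkk1 alone of these was called (-0.75, adjusted p = 0.0456), where 1.53% of all genes were called lower.

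Several lists of markers of other cells also differed from wild type in the double homozygous mutants. Of 9 stromal markers, 6 rose (6.31% of all genes did) and 0 fell, and the list summed to 8190 to 9970 CPM against 3130 to 3350 CPM in wild type. The largest rises were in Lum (log2 fold change 3.04, adjusted p = 0.000809 by edgeR) and Dcn (2.08, adjusted p = 0.000919), both matrix proteoglycans, and in the collagens Col1a1 (1.88, adjusted p = 0.000199) and Col3a1 (1.56, adjusted p = 0.000919). Col1a1 (mean 3050 CPM) and Col3a1 (mean 4560 CPM) made up most of the sum. Pdgfrb (0.27), Meis1 (-0.14) and Tcf21 (-0.06) were not called. Of 5 podocyte markers 4 rose, and the list summed to 1330 to 1720 CPM against 1040 to 1090 CPM. All 3 macrophage markers tested rose, to a sum of 76.2 to 104 CPM against 43.6 to 49.8 CPM. Of 8 markers of the ureteric bud and collecting duct, Wnt9b (-0.61) and Gata3 (-0.65) fell, where 7.4% of all genes did. Krt8 (0.29) and Wnt7b (0.18) lay wholly above wild type and were not called, and the list overlapped wild type (823 to 994 against 939 to 1040 CPM). Liver markers (3 of 4 called higher) reached 29.2 CPM. Of 4 skeletal muscle markers Myh3 rose, to a mean of 2.12 CPM. Acta1 (1.70), Mylpf (0.85) and Tnnt3 (-0.57, wholly below wild type) were not called. Of 17 tested markers of the proximal tubule, endothelium, erythroid cells, adrenal cortex and gonad, edgeR called 0, and 7 had an unadjusted p below 0.05, where 32.4% of all genes tested had one. Of the 5 endothelial markers 3 lay wholly above wild type, where 17.4% of all genes did. Their list summed to 739 to 799 CPM against 651 to 700 CPM, while the sums of the other lists named here overlapped wild type. None of the lists stood at 0 in any group, and their part in the fall of the members was not tested. In Hoxa+/- Hoxc-/- 2 of the 9 stromal markers rose, Lum (log2 fold change 1.08, adjusted p = 0.0196 by edgeR) and Col3a1 (0.52, adjusted p = 0.0375), where 0.836% of all genes did. There 6 of the 9 lay wholly above wild type, where 11.4% of all genes did, and the list summed to 3950 to 5310 CPM.

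The sum of proximal tubule markers also varied within wild type, at 2400, 1180 and 923 CPM in libraries 30, 37 and 55, in the reverse order of Six2 (67.1, 84.1 and 105 CPM). In the mutants the highest Six2, in library 20, went with the lowest sum, 375 CPM, and libraries 31 and 33 of its group had 2090 and 2680 CPM at Six2 levels of 77.0 and 69.6 CPM. In Hoxa+/- Hoxc-/- the order was not the reverse of Six2 throughout, since the sums were 2490, 1690 and 1280 CPM at Six2 levels of 62.3, 86.1 and 79.9 CPM. In the double homozygous mutants the sums were 2320, 2620 and 1850 CPM at Six2 levels of 28.0, 13.2 and 58.3 CPM. Wild type 30, with a sum of 2400 CPM, had a Six2 of 67.1 CPM, so a similar sum went with a higher Six2 there than in double homozygous 24. The part of these markers in the levels of the members was not tested.

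**Figure D5:**
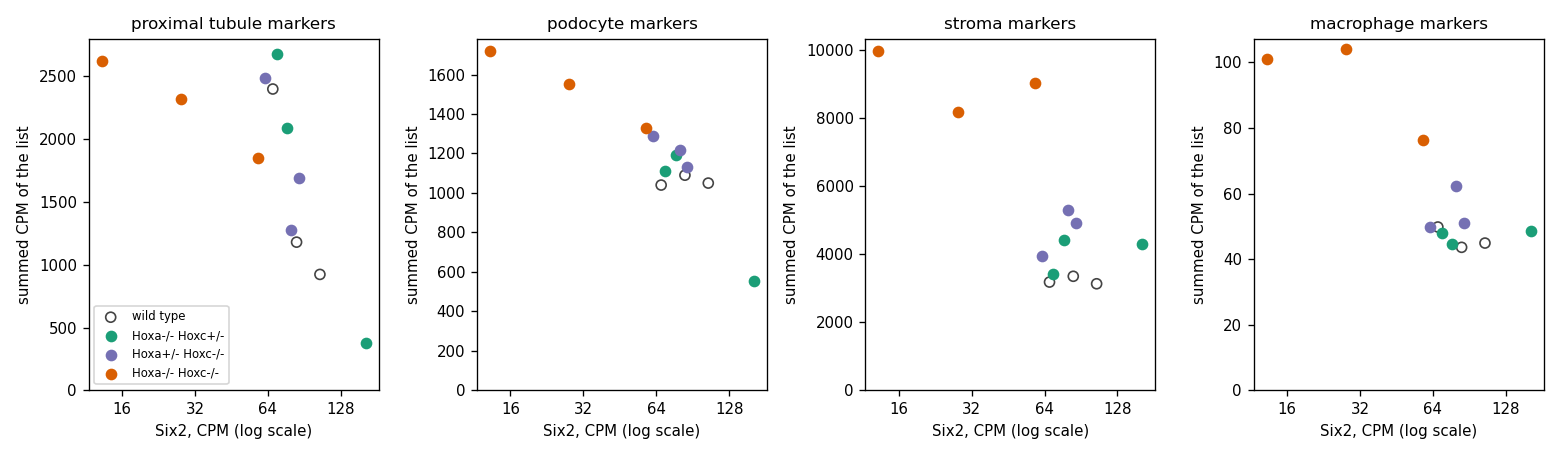
Summed CPM of marker lists for the proximal tubule, podocyte, stroma and macrophage against Six2 in CPM (log scale), with 1 point per library (open, wild type; filled, the mutant genotypes). Stromal and macrophage sums are high in all 3 double homozygous mutants, including number 29 with a Six2 of 58.3 CPM, while proximal tubule sums of wild type spread from 923 to 2400 CPM.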

How the data were processed

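The 12 libraries were made from total RNA of whole E18.5 kidneys and sequenced as paired-end reads of 75 bases. The authors aligned the reads to mm10, left out reads that mapped to several places, and deposited 1 table of expected counts, which carry fractions, and 1 of normalized values on the log2 scale. Whether the counting used strand is not given in the sources used here, so overlapping antisense transcripts cannot be told apart from the members.

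Expected counts were rounded and compared with edgeR 4.0.16 in R 4.3.3 (TMM factors, filterByExpr with a minimum count of 10 and a minimum total of 15, quasi-likelihood test, Benjamini-Hochberg adjustment over all genes tested, threshold 0.05), with the 6 libraries of each comparison in the fit. In counts simulated for the double homozygous mutants against wild type (15839 genes), this test called 75 of 100 genes changed by 1 on the log2 scale and 94 of 99 changed by 2, and 5.59% of its calls were false. Correlations used log2(CPM + 1) and exact permutation p. They are given unadjusted, in place of the adjustment over the 9 relations that was planned. Positions and promoters came from RefSeq (GRCm38.p6), with identifiers equal to those of the counts, and exon lengths from GENCODE. With no replicate number shared between groups and no litter given for each library, p-values measure the spread between these kidneys.

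The members and the gene lists were chosen with earlier results of these data known. From the lists, 2 genes are not reported here and enter no count or median. All 10 members are named, and from each other list up to 4 called genes with the largest change per comparison, the 8 genes most like Six2, the Hox genes and Xist. Cited2, Npnt, Itgb1, Wnt4 and members of the lists that did not pass were added after their values were seen. As alternatives, scaling was by library size alone or by RLE factors, the test was DESeq2 1.42.0, Audic-Claverie or limma 3.58.1 (on the log2 table), and the fit had no count filter, all 12 libraries or Xist as a covariate (prior count 0.5). Correlations were repeated with a pseudocount of 0.1 CPM, and each library was left out in turn. Plots were drawn with matplotlib 3.10.9.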

Additional observations from a re-analysis of the deposited data

How the results depend on the processing

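No paired analysis was possible because the groups share no embryo number. In double homozygous mutants against wild type, the counts of 2171 genes in either direction and 5 members lower depended on the setting. The count of genes was 3303 by DESeq2, 1190 with all 12 libraries, 75 with Xist as a covariate, 1196 by limma on the deposited log2 values, 880 by the Audic-Claverie test, and 535 to 3386 with 1 library left out. The count of members called was 7 by DESeq2 (Itga8 and Pax2 besides the 5), 6 by library size only (Pax2 besides the 5), 3 with all 12 libraries, 0 with Xist as a covariate, 1 by limma, and 1 to 9 with 1 library left out. Osr1 turned to -0.30 with Xist as a covariate. The other 9 members kept their sign in all fits.

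In Hoxa-/- Hoxc+/- against wild type, 18 genes were called by DESeq2, 2 with all 12 libraries, 1 by limma, 4790 with Xist as a covariate and 0 to 8 with 1 library left out. In the Xist fit, which in effect compares library 20 with wild type since the other libraries of the group have Xist, the members' median was 0.66 and Six2, Gdnf, Osr1, Meox1 and Crym were called higher. With 1 library left out the median was -0.21 to 0.29. By library size only, Cited1 was -0.09, Meox1 -0.01, Itga8 -0.06 and Sall1 -0.04, by limma Cited1 was -0.06 and Meox1 -0.09, and with Xist as a covariate Eya1 and Pax2 were both 0.16, each with the sign turned. With 1 library left out, Six2 ranged from -0.22 to 0.50, Cited1 from -0.41 to 0.22, Gdnf from -0.26 to 0.48, Meox1 from -0.64 to 0.41, Crym from -0.54 to 0.77, Eya1 from -0.21 to 0.04, Itga8 from -0.06 to 0.07, Pax2 from -0.18 to 0.07 and Sall1 from 0.00 to 0.12.

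In Hoxa+/- Hoxc-/- against wild type (376 genes), 1280 genes were called by DESeq2, 149 with all 12 libraries, 61 with Xist as a covariate, 104 by limma and 60 to 549 with 1 library left out. DESeq2 called 1 member (Cited1), and 0 to 1 were called with 1 library left out. Osr1 was -0.10 with Xist as a covariate and -0.11 to 0.27 with 1 library left out, and Six2 was -0.31 to 0.02. In double homozygous mutants against Hoxa-/- Hoxc+/-, 487 genes were called by DESeq2, 1 without a count filter, 540 with all 12 libraries, 25 with Xist as a covariate and 0 to 687 with 1 library left out. Of the members DESeq2 called 1 (Gdnf) and the fit with all 12 libraries 2 (Gdnf and Sall1). Their median was -1.39 to -0.60 with 1 library left out, and Osr1 was -0.36 to 0.06. Apart from the construction of the Xist fit, the causes were not tested. By Pearson's r the exact p was below 0.05 in 6 to 8 of 9 relations with 1 library left out, and in 8 with a pseudocount of 0.1 CPM, with scaling by library size only and within the 6 mutant libraries of 1 run. The lowest count of a member in any library was 191 reads, far above the floor of 3 counts.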
